A study of Homo sapiens with 6 samples.

Results

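The RNA levels of 9 receptors that bind lipoproteins or other scavenged ligands were examined in the hepatocellular carcinoma cell line Huh-7, with and without metformin. The receptors were the lectin-like oxidized low-density lipoprotein receptor OLR1, the class B scavenger receptors SCARB1 and CD36, the class A scavenger receptors MSR1 and SCARA3, the lipoprotein receptors VLDLR, LRP1 and LRP8, and the sorting receptor SORT1. They were found by mapping the Ensembl gene IDs of the deposited table to these symbols, and all 9 had a row among the 35840 genes of the table. Cells of the metformin group received 20 mM metformin for 48 h (3 libraries, metformin replicates 1 to 3), and cells of the control group received 0 mM for the same time (3 libraries, control replicates 4 to 6). The dose is that of the study's methods, whereas its abstract states a higher one. Both groups were starved before treatment and the RNA was pooled from cells per the study's methods, all libraries come from the same cell line, and polyA RNA was sequenced. The study's methods speak of independent trials in general, but no source ties each library to a culture of its own. If the libraries of a group shared a culture, the p-values below measure only the spread between these libraries. Levels are FPKM, the fragments of a gene per kilobase of its exons, scaled to the total fragments of the library. OLR1 was selected on its low FPKM in the metformin libraries, known from an earlier analysis of the same table, and the other members were added for their related function with results of the same contrast in view. The values of the members are therefore given as a description without p-values.

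Scavenger receptors are cell surface proteins that take up modified lipoproteins, lipids and debris. OLR1 is a C-type lectin that internalizes oxidized low-density lipoprotein (LDL) and is best known from endothelial cells and macrophages. SCARB1 takes up cholesterol esters from high-density lipoprotein into hepatocytes, and CD36 carries fatty acids and oxidized LDL. Lipoprotein receptors such as VLDLR, LRP1 and LRP8 bind apolipoprotein E or B, enter clathrin-coated pits through adaptor proteins and release their ligands in endosomes. In the liver LRP1 is among the receptors that clear lipoprotein remnants from the blood. VLDLR and LRP8 also receive the signal of reelin, and SORT1 carries apolipoprotein B and other cargo between the Golgi apparatus, endosomes and the cell surface.

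In 7 of the 9 receptors the mean reached 1 FPKM in the control or the metformin group, which was the minimum for the test across all genes. CD36 and MSR1 were below it. All 6 libraries were of similar size, with 17192221 to 18464783 fragments each as computed from the steps of the FPKM values, so that 1 fragment in a gene of 1 kb was worth 0.0542 to 0.0582 FPKM. All 8 hepatocyte and Huh-7 markers examined, among them ALB, AFP, APOB and HNF4A, reached 1 FPKM, and their summed level was 2116 to 2248 FPKM in the control group and 975 to 1173 FPKM in the metformin group. ALB and AFP made up most of this sum. Of the 8 markers 6 fell, whereas HNF4A (31.2 and 28.8 FPKM in the control and metformin groups) and SERPINA1 (67.6 and 81.3 FPKM) did not pass. Of 6 macrophage and Kupffer cell markers with a row in the table only CD14, which hepatocytes also express, reached 1 FPKM. AIF1 was at 0 in all libraries, and ITGAM and MARCO had 1 fragment each over the 6 libraries. None of 7 endothelial markers and of 2 platelet markers with a row reached 1 FPKM. TEK was at 0 in all libraries. Beside the receptors, CD14 was at 22.5 to 34.6 FPKM in the control group and 5.79 to 10.1 FPKM in the metformin group, so the macrophage list summed to 22.6 to 34.7 and 5.89 to 10.2 FPKM. The endothelial list summed to 0.416 to 0.661 and 0.537 to 1.12 FPKM, and the platelet list to 0.114 to 0.369 and 0.0522 to 0.169 FPKM. The part of these shifts in the results was not tested. In such bulk libraries fewer cells that express a gene and less RNA per cell cannot be told apart.

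**Figure D1:**
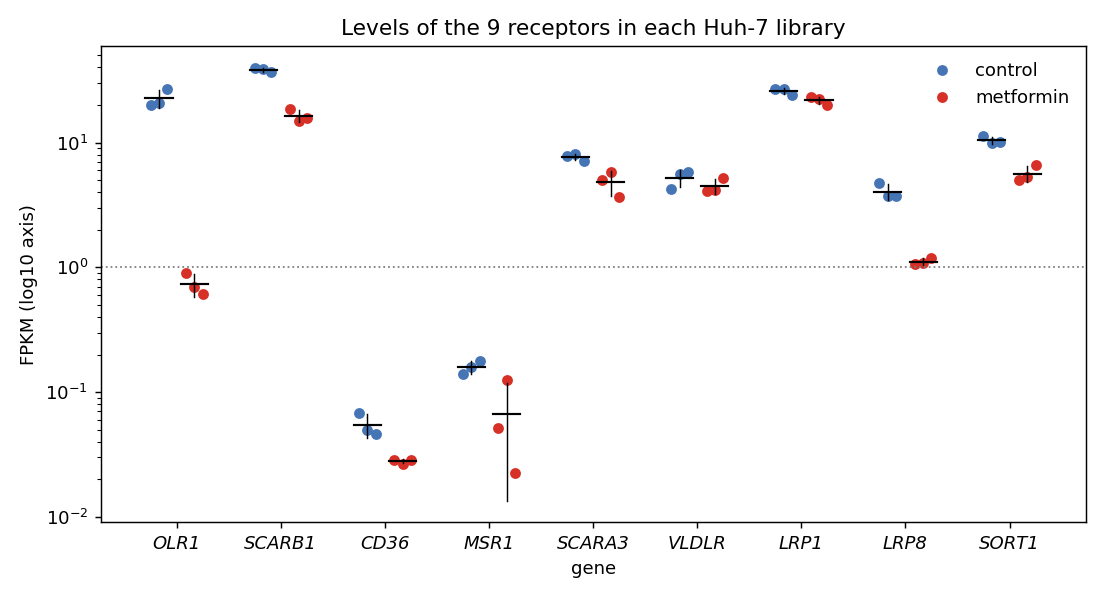
Level of each of the 9 receptors in FPKM on a log10 axis, with 1 point per library, the mean as a horizontal line and 1 SD as a vertical line (n = 3 per group); the dotted line marks 1 FPKM. OLR1 has the widest gap between the groups, with 20.1 to 26.7 FPKM for control and 0.607 to 0.907 FPKM for metformin, and the groups overlap only in VLDLR.

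The promoters of LRP8 and VLDLR are shown because these sister receptors share ligands but had different values after metformin. RefSeq promoter windows (GRCh38.p14) were examined for 5 of the 9 members, which were CD36, VLDLR, LRP1, LRP8 and SORT1. Windows of the other members were not analysed here. Each window runs from 250 bases before the transcription start to 50 bases after it, 5′ to 3′ on the strand of the gene. The LRP8 window is on chromosome 1 from 53328021 to 53328320 on the minus strand, and the VLDLR window is on chromosome 9 from 2621537 to 2621836 on the plus strand. Capitals mark matches to the GC box letters GGGCGG on either strand.
LRP8: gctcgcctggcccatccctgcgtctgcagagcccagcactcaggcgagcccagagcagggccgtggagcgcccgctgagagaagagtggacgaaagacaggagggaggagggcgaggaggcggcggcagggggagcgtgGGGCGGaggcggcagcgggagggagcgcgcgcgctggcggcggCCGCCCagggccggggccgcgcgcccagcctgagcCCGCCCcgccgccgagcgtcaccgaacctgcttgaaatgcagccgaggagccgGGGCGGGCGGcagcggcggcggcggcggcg
VLDLR: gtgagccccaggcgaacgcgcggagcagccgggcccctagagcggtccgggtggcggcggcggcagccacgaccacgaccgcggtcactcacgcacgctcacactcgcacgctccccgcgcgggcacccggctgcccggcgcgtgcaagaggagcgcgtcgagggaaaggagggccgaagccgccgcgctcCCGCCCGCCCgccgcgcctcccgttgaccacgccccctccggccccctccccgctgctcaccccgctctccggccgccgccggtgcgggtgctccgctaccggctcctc
The LRP8 window held 5 matches, with first bases at -111, -68, -33, 21 and 25 from the start, of which the last 2 overlap. The VLDLR window held 2 overlapping matches, at -59 and -55. Of 35116 windows of the same length, 45.0% held at least 1 match and 9.06% at least 4. Neither window held the letters CCAAT (found in 34.6% of windows) or TATAAA (11.5%) on either strand. Their GC contents were 78.3% and 79.0%, against a median of 58.7% over all windows. The windows thus had similar base composition, and the matches are a description of letters and not of binding.

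OLR1 had the largest fold difference between the groups of the 9 receptors. The gene lies on chromosome 12 from 10158301 to 10172138 on the minus strand (GRCh38). Its level was 20.1, 20.9 and 26.7 FPKM in control replicates 4, 5 and 6 and 0.907, 0.691 and 0.607 FPKM in metformin replicates 1, 2 and 3. Every control library was far above every metformin library, and the lowest control value was 22.2 times the highest metformin value. These levels rest on 1073, 1141 and 1401 fragments in the control libraries and 48, 39 and 32 fragments in the metformin libraries. The ratio of the group means in FPKM was 30.7, whereas the log2 fold change on the scale of log2(FPKM + 1), which understates the change of low levels, was -3.76 (standard error 0.12). With a pseudocount of 0.1 in place of 1 it was -4.77, and on the rebuilt fragments with voom it was -4.93. In the control group OLR1 lay above 88.9% of protein-coding genes of the table, and in the metformin group above 39.1% of them.

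SCARB1, the receptor for high-density lipoprotein, had the highest level of the 9 in the control group and was lower in the metformin group. It was at 39.7, 38.6 and 36.7 FPKM in the control libraries and 18.5, 15.0 and 15.6 FPKM in the metformin libraries. The groups were clearly apart, and the log2 fold change was -1.18 (standard error 0.081). Its difference of 22.0 FPKM between the group means was as large as that of OLR1 (21.8 FPKM), although its ratio was only 2.34. CD36 was barely detected, with 12, 9 and 8 fragments in the control libraries and 5 in each metformin library, or 0.0460 to 0.0681 and 0.0268 to 0.0287 FPKM. The CD36 groups did not overlap, but at so few fragments the gene was below the minimum and was not tested.

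Of the class A scavenger receptors, which bind modified LDL on macrophages (MSR1) or are linked to oxidative stress (SCARA3), only SCARA3 was expressed above the minimum. SCARA3 was at 7.84, 8.04 and 7.14 FPKM in the control libraries and 4.99, 5.83 and 3.67 FPKM in the metformin libraries. All metformin values lay below the control values, with a spread of 22.6% (SD over the mean) in the metformin group against 6.14% in the control group, and the log2 fold change was -0.59 (standard error 0.13). MSR1 had 19, 22 and 24 fragments in the control libraries and 7, 18 and 3 in the metformin libraries. The metformin libraries of MSR1 thus differed widely among themselves, at 0.0223 to 0.125 FPKM, and the highest of them was just below the lowest control library (0.140 FPKM).

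Among the lipoprotein receptors, LRP8 was clearly lower in the metformin group while VLDLR overlapped between the groups. LRP8, a receptor for apolipoprotein E and reelin, was at 4.70, 3.74 and 3.72 FPKM in the control libraries and 1.06, 1.08 and 1.19 FPKM in the metformin libraries. The lowest control library was 3.13 times the highest metformin library, the ratio of the means was 3.65 and the log2 fold change was -1.25 (standard error 0.094) or -1.77 with a pseudocount of 0.1. VLDLR, which binds triglyceride-rich lipoproteins, was at 4.28, 5.58 and 5.77 FPKM in the control libraries and 4.07, 4.16 and 5.17 FPKM in the metformin libraries. Control replicate 4 lay within the range of the metformin libraries, and the log2 fold change was -0.18 (standard error 0.12). Without control replicate 4 it was -0.29 and passed the threshold. Such calls of members are a description and not support, because the members were chosen with this contrast in view. LRP1, a large endocytic receptor of hepatocytes for lipoprotein remnants, was at 26.7, 26.7 and 24.1 FPKM in the control libraries and 23.0, 22.3 and 20.2 FPKM in the metformin libraries. These groups did not overlap but nearly touched, with a ratio of 1.05 between the closest libraries, and the log2 fold change of -0.23 (standard error 0.069) shrank to -0.076 under TMM scaling and -0.083 under median-of-ratios scaling, where it was no longer called, and it was -0.21 and not called without control replicate 4 or without control replicate 5.

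The sorting receptor SORT1 was at 11.2, 9.95 and 10.1 FPKM in the control libraries and 5.03, 5.32 and 6.57 FPKM in the metformin libraries. Every metformin library was below every control library, and the log2 fold change was -0.79 (standard error 0.097). With a ratio of the means of 1.84, SORT1 stood between SCARB1 (2.34) and SCARA3 (1.59).

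The order of the receptor levels differed between the groups. In the control group the means ran from SCARB1 (38.3 FPKM) over LRP1 (25.8), OLR1 (22.6), SORT1 (10.4), SCARA3 (7.67), VLDLR (5.21) and LRP8 (4.05) to MSR1 (0.159) and CD36 (0.0546). The libraries of LRP1 and OLR1 overlapped there, as did those of VLDLR and LRP8, so these neighbors did not differ beyond their spread. In the metformin group LRP1 (21.8 FPKM) was first and SCARB1 (16.4) second, without overlap between their libraries. SORT1 (5.64), SCARA3 (4.83) and VLDLR (4.47) followed with overlapping libraries, and LRP8 (1.11) and OLR1 (0.735) came after them. Within each metformin library SORT1 was above VLDLR, whereas SCARA3 was above SORT1 in metformin replicate 2 and below VLDLR in metformin replicate 3. Summed over the 9 receptors, the level was 114 ± 0.490 FPKM in the control group and 55.1 ± 2.33 FPKM in the metformin group (SD, n = 3 each). OLR1 made up 17.5% to 23.3% of this sum in each control library but 1.14% to 1.57% after metformin. The share of LRP1 was 21.1% to 23.5% in each control library and 38.0% to 40.8% after metformin. OLR1 and SCARB1 together carried most of the difference in the sum, 36.9% and 37.1% of it. Without OLR1 the sums were 91.7 ± 3.58 and 54.3 ± 2.18 FPKM.

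**Figure D2:**
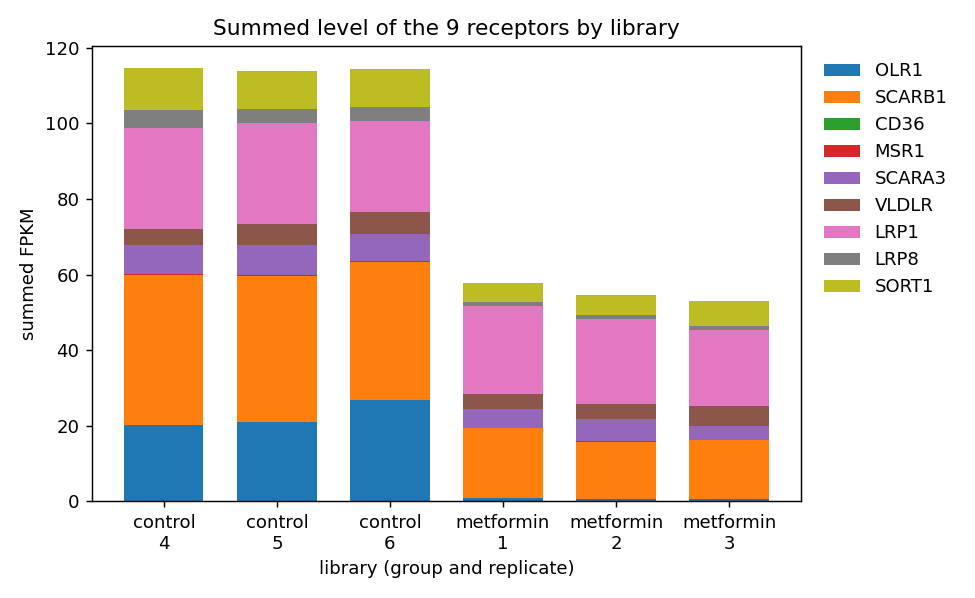
Stacked bars of the FPKM of the 9 receptors in each of the 6 libraries, labelled by group and replicate. The bars reach 114 to 115 FPKM for control and 53.1 to 57.6 FPKM for metformin, where the OLR1 segment is nearly gone.

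Of the 7 members that could be tested, 6 had an adjusted p under 0.05 in the lower direction and none in the higher direction, and OLR1, SCARB1 and LRP8 also had an absolute log2 fold change above 1. These calls came from limma's trended test of log2(FPKM + 1) and were adjusted by Benjamini-Hochberg over all 13094 genes tested. The same test called 73.0% of these genes, 44.1% lower and 28.9% higher, and with an absolute log2 fold change above 1 it called 10.7% lower and 4.88% higher. The groups did not overlap in 6 of these 7 members, all lower, and in 76.7% of all genes tested, 46.0% lower. The median log2 fold change was -0.79 over the 7 members and -0.14 over all genes tested. Because the members were chosen with this contrast in view, nothing is read from these counts. Quantile, TMM and median-of-ratios scaling raised the median of all genes by 0.129, 0.136 and 0.129, and the share of higher genes among the called ones was 39.6% without such scaling and 50.3%, 50.1% and 49.5% with it. The log2 fold changes of the 7 members stayed below 0 under each of these scalings, but that of VLDLR shrank to -0.047, -0.045 and -0.051 and that of LRP1 was no longer called under TMM and median-of-ratios scaling.

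Receptors of the same families outside the members moved both ways. Of 17 other scavenger receptors 15 had a row and 5 could be tested, of which 2 rose and 3 fell (2 and 2 with quantile normalization), with a median log2 fold change of -0.39. With no filter, and also with voom on rebuilt fragments, 4 of the list were higher and 3 lower, with genes below the minimum included. Among all 13094 genes tested, 28.9% rose and 44.1% fell. AGER, a receptor for advanced glycation end products, was at 2.26, 2.75 and 2.21 FPKM in the control libraries and 0.417, 0.469 and 0.531 FPKM in the metformin libraries, and fell with a log2 fold change of -1.21 (standard error 0.095, adjusted p = 2.80e-05). CXCL16, a membrane chemokine that binds oxidized lipids (log2 fold change -0.41), and the collectin COLEC12 (-0.39) also fell, and the lysosomal receptor SCARB2 (0.33) and SSC4D (0.48) rose. The relatives of SCARB1 thus did not share 1 direction, as SCARB2 was at 9.47 to 11.2 FPKM for control and 12.8 to 13.5 FPKM for metformin. Of the receptors below the minimum, SCARA5 had 14 fragments in the control group and 74 in the metformin group, and CD68 was listed at 0 in all libraries. MARCO, STAB1 and STAB2, receptors of macrophages and sinusoidal endothelium, had at most 15 fragments per group.

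Of 18 other lipoprotein and sorting receptors, 15 had a row and 10 could be tested. Of these, 5 rose, 2 fell and 3 did not pass, with a median log2 fold change of 0.21. The shares over all genes tested were 28.9% higher and 44.1% lower. None of the 10 receptors had an absolute log2 fold change above 1 on the log2(FPKM + 1) scale, although the means of LRP12 differed 2.09-fold in FPKM. LRP12 (0.70), LRP3 (0.53), LDLRAD3 (0.40), LRP4 (0.29) and LRP10 (0.26) rose, while LRP2 (-0.34) and LRP6 (-0.21), a coreceptor of Wnt, fell. LRP12 was at 1.31, 1.32 and 1.42 FPKM in the control libraries and 2.81, 2.78 and 2.91 FPKM in the metformin libraries, with every metformin library above every control library (limma, adjusted p = 7.65e-05). With TMM or median-of-ratios scaling 6 of the 10 were higher and none lower. With no filter 4 of the list were higher and 3 lower, and with voom on rebuilt fragments 6 were higher and 4 lower, both with genes below the minimum included. Of those, LDLRAD4 had 171, 136 and 172 fragments in the control libraries and 43, 51 and 51 in the metformin libraries, and LDLRAD2 had 34 fragments in the control group and 2 in the metformin group. The count of 7 called was 3 without control replicate 5 or metformin replicate 2 and 4 without control replicate 6 or metformin replicate 3.

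Among the adaptors, chaperones and regulators of these receptors, MYLIP had the highest log2 fold change. MYLIP, a ubiquitin ligase that marks VLDLR and LRP8 for degradation, was at 6.30, 6.29 and 6.06 FPKM in the control libraries and 15.6, 15.9 and 18.2 FPKM in the metformin libraries. It rose with a log2 fold change of 1.28 (standard error 0.070, adjusted p = 6.42e-06). Every metformin library was above every control library, and the closest libraries differed 2.48-fold.

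Of 17 adaptors, chaperones and regulators, 15 could be tested, of which 4 rose, 7 fell and 4 did not pass, with a median log2 fold change of -0.14, the same as over all genes tested. Of all genes tested, 28.9% rose and 44.1% fell. PDZK1, a scaffold that holds SCARB1 at the hepatocyte membrane, was at 14.3 ± 0.983 and 4.73 ± 0.709 FPKM in the control and metformin groups (SD, n = 3 each) and fell by 1.42 on the log2 scale (limma, adjusted p = 1.66e-05). MESD, a chaperone needed to fold lipoprotein receptors, was at 8.03 ± 0.250 and 3.51 ± 0.0439 FPKM and fell with a ratio of the means of 2.29 (adjusted p = 6.87e-06). Falls were also found for DAB1, the adaptor of VLDLR and LRP8 in reelin signaling (log2 fold change -0.90, ratio of the means 3.01), and ANGPTL4 (-0.88, ratio of the means 3.46), both at low levels that the log2(FPKM + 1) scale compresses. The remaining falls were of the sorting nexin SNX17 that recycles LRP1 (-0.65), the chaperone LRPAP1 (-0.56) and SNX27 (-0.33). GULP1 (0.45), NUMB (0.21) and GGA3 (0.19), an adaptor for SORT1, rose beside MYLIP, although the libraries of GULP1 overlapped between the groups. The endocytic adaptor DAB2, at 43.8 ± 2.11 and 43.4 ± 6.13 FPKM, did not pass.

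**Figure D3:**
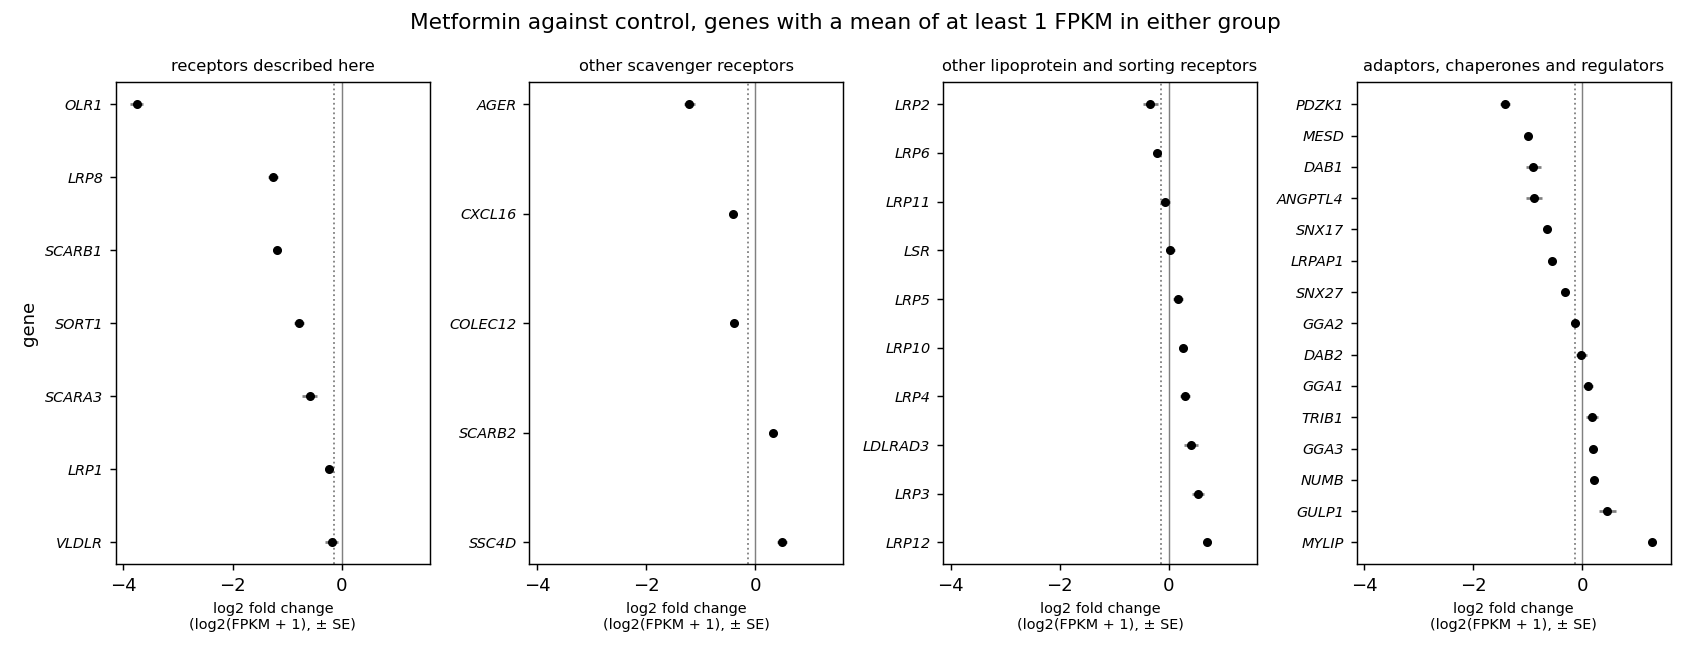
Log2 fold change of metformin against control on the scale of log2(FPKM + 1) for each gene above the minimum level, in 4 panels for the receptors described here and the 3 lists; points are estimates, bars are 1 standard error, and the dotted line is the median of all genes tested (-0.14). OLR1 at -3.76 lies farthest to the left, and MYLIP at 1.28 lies farthest to the right.

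OLR1 sits in a cluster of C-type lectin genes, and most of its neighbors were hardly expressed. Of 27 other genes of the table that start within 500 kb of the start of OLR1, 6 could be tested, of which 1 rose and 5 fell. Over all 13094 genes tested, 28.9% rose and 44.1% fell, and nothing is read from so small a count. TMEM52B starts 1.60 kb away on the opposite strand and overlaps OLR1, with no shared exon base in GENCODE 44. TMEM52B was at 4.19, 3.79 and 4.15 FPKM in the control libraries and 1.06, 1.57 and 1.48 FPKM in the metformin libraries, a fall with a log2 fold change of -1.10 (standard error 0.10, adjusted p = 5.43e-05). Its ratio of the means of 2.95 was far below the 30.7 of OLR1. GABARAPL1, an autophagy gene 40.3 kb away, was at 29.6 to 31.9 FPKM for control and 42.9 to 48.9 FPKM for metformin, and rose by 0.55 on the log2 scale (standard error 0.064, adjusted p = 0.000172). Of the lectin genes below the minimum, the nearest were CLEC7A, KLRD1 and CLEC1A. CLEC7A had 78 fragments in the control group and 39 in the metformin group, with overlapping libraries, and CLEC1A had 15 and 7. KLRD1, a receptor of natural killer cells, went the other way, with 7, 2 and 3 fragments in the control libraries and 9, 21 and 28 in the metformin libraries. Farther off, on the log2(FPKM + 1) scale, KLRA1P (-1.65), MAGOHB (-1.18), KLRK1-AS1 (-0.80) and EIF2S3B (-0.33) fell. KLRK1-AS1 was at 1.54, 0.872 and 1.21 FPKM in the control libraries and 0.225, 0.249 and 0.307 FPKM in the metformin libraries, a ratio of the means of 4.64. Its log2 fold change was -1.83 with a pseudocount of 0.1 and -2.14 with voom on rebuilt fragments, and its call was lost with quantile normalization (-0.36). That of EIF2S3B (adjusted p = 0.031) was lost in 7 of 13 alternatives, among them quantile, TMM and median-of-ratios scaling and leaving out control replicate 5 (-0.21), metformin replicate 2 (-0.34) or metformin replicate 3 (-0.28). Fragments of MAGOHB and EIF2S3B may be split with their close paralogs.

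**Figure D4:**
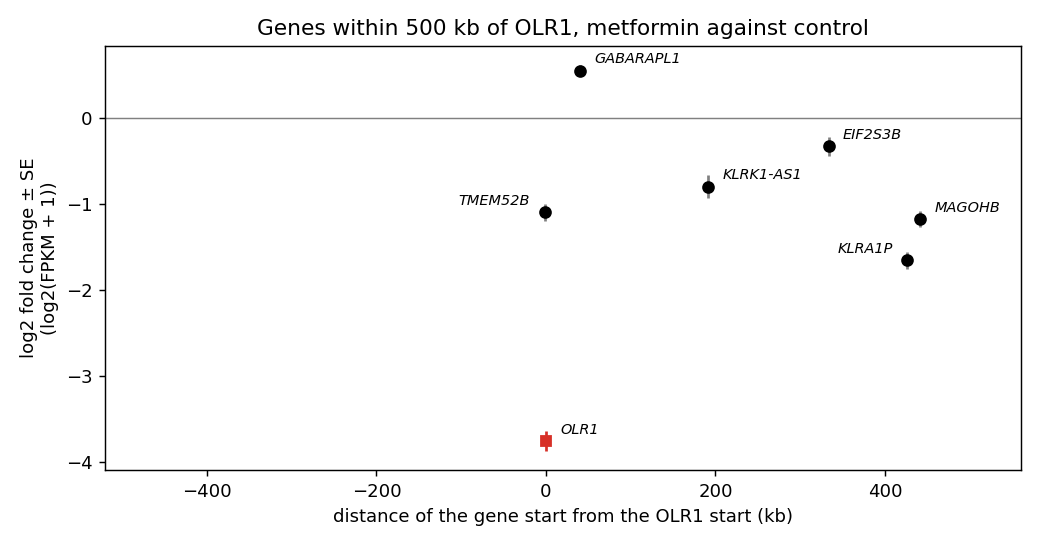
Log2 fold change (± 1 standard error) of the 6 tested genes within 500 kb of OLR1 against the distance of their start from that of OLR1 in kb, with OLR1 as a square. OLR1 lies at -3.76, TMEM52B next to it at -1.10, and GABARAPL1 at 0.55 is the only gene above 0.

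The genes whose levels followed OLR1 most closely over the 6 libraries were PUDP, CENPI, DNA2, CTNNB1 and CCNB1, ranked by Pearson correlation of log2(FPKM + 1) among 6787 candidates, all protein-coding and at 5 FPKM or more on average. Their correlations were 0.9994 to 0.9997, and 508 of these genes had a correlation above 0.99, since any gene with tight groups and a lower metformin level scores high. The likeness thus does not extend to the size of the difference. CENPI, a kinetochore protein, went from 8.71 ± 0.694 to 1.36 ± 0.120 FPKM (SD, n = 3 each), a ratio of 6.38, whereas the ratio was 1.61 for PUDP.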

How the data were processed

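RNA of 6 Huh-7 libraries was sequenced by the authors. The deposited values are FPKM per gene and library, made by the authors from clean reads with the GRCh38 genome (annotation release 87). The submitters' processing notes name Cufflinks 2.1.1, but the program that made the FPKM is not stated. No aligner is named in the sources used here. Of 35840 gene IDs, 35450 were in GENCODE 44 (GRCh38), which gave symbols, biotypes and coordinates. Whole fragments were rebuilt from the FPKM steps for 31738 of the 31777 genes above 0 (99.9%, tolerance 1e-06 relative to the number). The strand setting of the counting is not given, so antisense overlaps may share fragments. LRP8 and MAGOH-DT share 1046 exon bases in GENCODE 44. The FPKM imply 10258 exon bases for LRP8, against 19668 in GENCODE 44, so this overlap may differ in the exons that were counted.

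The test was limma 3.58.1 in R 4.3.3 on log2(FPKM + 1), trended, two-sided, over the 13094 genes whose mean reached 1 FPKM in the control or the metformin group. The authors used Cuffdiff, which needs aligned reads. A gene rose or fell at an adjusted p under 0.05. The procedure was tested on simulated data in which few genes changed, as many up as down. That simulation did not cover a change of most genes with more lower than higher, as found here. Python 3.11.15, numpy 2.4.6, pandas 2.3.3 and matplotlib 3.10.9 were used for tables and figures. The members and lists were chosen with earlier results of these data known. Named genes were the members, the listed genes called with an absolute log2 fold change above 1 (at most 6 per list), MYLIP, the tested genes within 500 kb of OLR1 and the 5 genes most like OLR1. Other listed genes were chosen after seeing their values. The alternatives tried were no filter, a pseudocount of 0.1, quantile, TMM and median-of-ratios scaling, protein-coding genes only, voom on the fragment numbers (10 or more in 3 or more libraries) and leaving out each library. Marker and list genes without a row (such as CD163 and GPIHBP1) were not analysed here. Some listed genes are not reported here and were left out of the counts of their lists.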

Additional observations from a re-analysis of the deposited data

How the results depend on the processing

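Under 13 alternatives, OLR1, SCARB1, SCARA3, LRP8 and SORT1 kept their direction and their side of the threshold. The members were chosen with this contrast in view, and the main test called 73.0% of all genes tested. The calls of members are therefore a description and not support. Leaving out each library gave log2 fold changes of -3.83 to -3.64 for OLR1, -1.27 to -1.13 for SCARB1, -0.71 to -0.44 for SCARA3 and -0.88 to -0.72 for SORT1. Over the other alternatives OLR1 ranged from -4.93 with voom on rebuilt fragments to -3.57 with quantile normalization. LRP1 was no longer called with TMM factors (-0.076) or median-of-ratios factors (-0.083), or without control replicate 4 or 5, and leaving out each library gave -0.28 to -0.18. VLDLR passed without control replicate 4 and ranged from -0.29 to -0.11 when each library was left out. The count of other lipoprotein and sorting receptors called was 3 to 8 when each library was left out, against 7 with all. The counts of the other scavenger receptors (4 to 7, against 5), of adaptors, chaperones and regulators (9 to 13, against 11) and of genes near OLR1 (4 to 7, against 6) stayed within 1.5 times. For the 15 named genes outside the members, 185 of 193 values kept their direction and their side of the threshold, and 8 were no longer called, 7 of EIF2S3B and 1 of KLRK1-AS1. The other listed genes described above, among them LRP2, LRP6, LRP10 and GULP1, were not followed singly under the alternatives. No paired analysis was possible because the groups share no replicate number. Depth limits CD36 and MSR1, with 15 and 28 fragments in the metformin group. They were tested only without the minimum level or, for MSR1, with voom on rebuilt fragments.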
